A study of Mus musculus with 9 samples.

Results

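The transcription factors described here are the bHLH proteins of the Myc network (Myc, Max, Mnt, Mxd1, Mxd3, Mxd4, Mxi1 and Mga) together with Myb, taken as the rows of the expression table that carry these 9 gene symbols, out of 21883 genes in all. Every one of the 9 was above 0 in at least 1 library of each comparison and was tested, and 8 of them averaged at least 1 FPKM (fragments per kilobase of transcript, scaled to the mapped fragments of the library). The RNA came from invariant natural killer T (iNKT) cells sorted by flow cytometry from the thymus of C57BL/6 mice. These cells pass through a stage 2, which lacks the receptor NK1.1, into a stage 3 that carries it. There were 3 libraries of WT stage 2 cells and 3 of WT stage 3 cells, from wild-type mice that were 6 weeks old, and 3 of Med23-deficient stage 2 cells. In the Med23-deficient mice a floxed Med23 gene, which encodes a subunit of the Mediator complex, is deleted by Cd4-Cre, so the loss covers all cells that pass through the double-positive thymocyte stage and is not restricted to iNKT cells; the labels do not give the age of these mice. Nor do the labels say whether the 3 libraries of a group came from separate animals, so the p-values below measure only the spread between these samples. The WT samples are numbered consecutively in the repository and the Med23-deficient ones in a separate, later block. Anything that differed along with this cannot be told apart from genotype. The comparisons ask how the factors change between stage 2 and stage 3, and how the stage 2 cells that lack Med23 differ from each of the WT stages.

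Myc activates genes for ribosome production, metabolism and cell cycle entry as a heterodimer with Max, which Myc needs to bind the E-box, CACGTG; Max can also bind it as a homodimer. Mxd1, Mxd3, Mxd4, Mxi1 and Mnt take Max as a partner for the same sites and recruit the Sin3 corepressors, so they act as antagonists of Myc. Mga is a large protein that also pairs with Max and is part of a Polycomb-type repressor complex. Myb belongs to another family, binds through Myb repeats, and is known in the thymus for its role in double-positive thymocytes, where it prolongs their survival and thereby allows the rearrangement that produces the iNKT cell receptor. Myc, in turn, is known to be needed for the expansion of iNKT precursors soon after selection.

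The libraries were checked against markers of the labelled cells. Summed over 9 iNKT and T cell genes the level was 953 to 1090 FPKM in WT stage 2, 1151 to 1322 in WT stage 3 and 1019 to 1141 in Med23-deficient stage 2. Klrb1c, which encodes NK1.1, averaged 16.7, 75.01 and 3.42 FPKM in the same order. The sum mixes opposite changes. By the study's thresholds (fold of at least 2, unadjusted p of at most 0.05), Il2rb, Tbx21 and Klrb1c were higher in WT stage 3 than in WT stage 2. Zbtb16 was lower (27.5 against 101.0 FPKM). Of all genes 3.6% passed. Against WT stage 2 the Med23-deficient cells had 1 of the 9 called, Klrb1c, with a log2 difference of -1.88 (limma adjusted p = 0.210), beside 2.11% of all genes. The 8 double-positive thymocyte markers summed to between 1.79 and 5.05 FPKM in every library, the 4 B cell markers in the table to at most 1, the myeloid markers to at most 1.69 and the only erythroid marker in the table, Hbb-bs, to at most 0.75. Rag2 was at 0 in 6 libraries and Cd79a in 8. Med23 was at 5.51, 5.15 and 6.74 FPKM in WT stage 2, 7.14, 4.44 and 6.12 in WT stage 3, and 4.80, 3.60 and 3.92 in Med23-deficient stage 2, and a whole-gene FPKM does not show the deleted part. Between 15584 and 17333 genes were above 0 in a library, and 1 gene model, Gm23935, held 62.2% to 71.9% of the summed FPKM. The number of reads behind the values is unknown.

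The start of the Myb gene is shown first because Myb was the only one of the 9 genes that was called. Myb (ENSMUSG00000019982) lies on the minus strand of chromosome 10 at chr10:21124935-21160984 (mm10). The 250 bases just before its start, at chr10:21160985-21161234, are given 5′ to 3′ on the gene's strand from RefSeq (GRCm38.p6), with each CpG dinucleotide in capitals.
Myb: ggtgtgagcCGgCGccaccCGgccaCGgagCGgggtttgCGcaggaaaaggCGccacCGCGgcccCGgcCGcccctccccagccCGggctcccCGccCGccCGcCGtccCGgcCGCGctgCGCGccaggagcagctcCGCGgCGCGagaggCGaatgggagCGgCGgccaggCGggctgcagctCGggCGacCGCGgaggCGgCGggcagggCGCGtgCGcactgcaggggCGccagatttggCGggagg
This stretch was 81.2% G and C and held 40 CpG dinucleotides, where the median over the same 250 bases of 32851 promoters was 6, and 1.31% of them held at least 40. Neither the E-box, the Myb motif TAACNG nor the E2F motif TTTNNCGC, searched on both strands, matched anywhere in the 300 bases from 250 before to 50 after the Myb start. Only exact matches were counted. Near its end the printed stretch holds tttggCGg, which differs from TTTNNCGC only in the last letter.

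E-boxes were looked for next, since a Max-containing dimer would bind there. Promoters were found by symbol for 8 of the 9 genes, 10 promoters in all, and CACGTG occurred in those of 3 genes, Mxd4, Mnt and Max, against 7.15% of all 32851 promoters of the same length. The stretches around these matches are printed with the E-box in capitals, each on the strand of its gene.
Mxd4: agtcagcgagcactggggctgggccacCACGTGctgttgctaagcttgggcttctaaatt
Mnt: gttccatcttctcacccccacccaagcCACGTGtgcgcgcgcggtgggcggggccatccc
Max: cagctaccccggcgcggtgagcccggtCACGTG
The first base of the match lay at position -219 from the start of Mxd4 (chr5:34187897-34187956, minus strand), at -123 from that of Mnt (chr11:74830774-74830833, plus strand) and at -3 from that of Max (chr12:76962246-76962278, minus strand). TAACNG matched in a promoter of Mxd3 and in one of Mxi1, a motif that 23.3% of all promoters held, and TTTNNCGC, held by 5.17%, matched in none of the 8 genes. These matches describe the letters only.

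By level per length, Max, Mxd4 and Myc led in every group and Mxd3 was last. In WT stage 2 the means were 36.3 ± 12.3 FPKM for Max (SD, n = 3 in each group), 20.7 ± 3.98 for Mxd4, 19.5 ± 3.94 for Myc, 11.2 ± 1.91 for Mga, 10.7 ± 0.773 for Myb, 8.82 ± 2.96 for Mnt, 7.02 ± 2.33 for Mxd1, 2.78 ± 0.290 for Mxi1 and 0.480 ± 0.282 for Mxd3. In that order the libraries of neighbours overlapped except between Myc and Mga, between Mxd1 and Mxi1, and between Mxi1 and Mxd3. Myb was the fifth in WT stage 2, above 76.4% of the 13109 protein-coding genes. In WT stage 3 its mean was next to last, behind Mxi1 and above 38.9% of protein-coding genes. In Med23-deficient stage 2 it lay between Mxd1 and Mxi1, above 49.7%. The libraries of Myb and Mxi1 overlapped in each of these groups. Max and Mxd4 stayed above 86.1% or more of protein-coding genes in all 3 groups, and Myc above 87.2% or more.

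**Figure D1:**
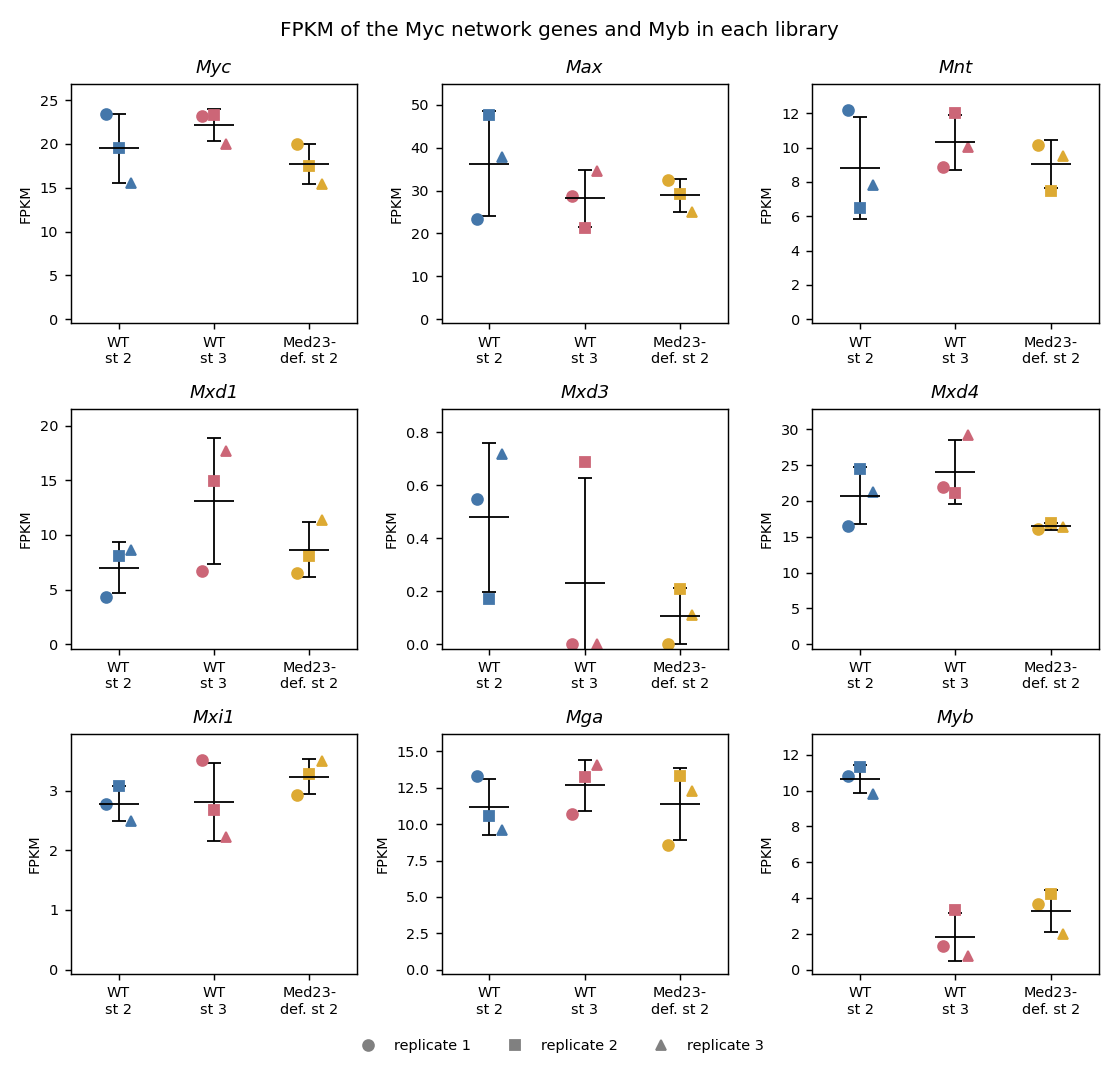
FPKM of each of the 9 genes (vertical axes, 1 panel a gene, each with its own scale starting at about 0) in the 3 libraries of WT stage 2 (WT st 2), WT stage 3 (WT st 3) and Med23-deficient stage 2 (Med23-def. st 2); symbols mark replicates 1 to 3, the horizontal line the mean and the bar 1 SD (for Mxd3 in WT stage 3 it runs below the axis). Only in the Myb panel do all 3 WT stage 2 libraries, at 9.80 to 11.3 FPKM, lie above every library of the other two groups, which reach at most 4.21.

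Myb was lower in WT stage 3 than in WT stage 2. Its level was 10.8, 11.3 and 9.80 FPKM in the WT stage 2 libraries and 1.29, 3.32 and 0.78 FPKM in the WT stage 3 libraries. The highest stage 3 library lay below every stage 2 library, and Myb was the 1 member of 9 whose groups did not overlap, as for 17.8% of all genes. The ratio of the means was 0.169, and on the log2(FPKM + 1) scale Myb fell by 2.16 (SE 0.34, 95% interval of the change from -3.00 to -1.32, limma adjusted p = 0.0473 over 20689 genes). It was 1 of 9 members past this test, where 0.914% of all genes fell and 1.67% changed in either direction. By the study's own thresholds, a fold of at least 2 with an unadjusted p of at most 0.05, Myb was again the 1 member called, beside 3.6% of all genes, of which those called lower were 1.9% of all genes; in a Ballgown-style model, the nearest to the study's own test, Myb was not called. The adjusted call was marginal: with any 1 library left out other than WT stage 3 replicate 2, adjusted p rose to between 0.126 and 0.143, while the change stayed between -2.53 and -1.89 over all 6 such fits. It was also above 0.05 under 5 of the 8 other alternatives.

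Myb was also lower in the stage 2 cells that lacked Med23, which had 3.66, 4.21 and 1.96 FPKM. All 3 lay below the lowest WT stage 2 library, and again no other member had groups that did not overlap, as 14% of all genes had. The mean was 3.28 ± 1.17 FPKM (n = 3) against 10.7 ± 0.773 (n = 3), a ratio of 0.308, and the difference on the log2(FPKM + 1) scale was -1.48 (SE 0.24, 95% interval -2.08 to -0.89). It passed the study's thresholds but not the adjustment over 20674 genes (limma adjusted p = 0.103). Myb was the 1 member of 9 called by fold and p, where 2.11% of all genes were called and 1.32% were called lower. None of the 9 passed limma's adjusted p, which 0.213% of genes did and 0.145% did as lower; at an unadjusted p of at most 0.05 there was 1, as for 9.58% of genes. When only genes with a mean of at least 1 FPKM were tested, the adjusted p was 0.0333. The 2 comparisons share the WT stage 2 libraries.

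Whether the cells without Med23 kept more Myb than WT stage 3 cells could not be settled. The 2 groups overlapped, with the lowest Med23-deficient library at 1.96 FPKM and the highest WT stage 3 library at 3.32. The difference was 0.68 on the log2 scale (SE 0.42, 95% interval -0.34 to 1.70, limma adjusted p = 0.707). It passed the study's thresholds only without WT stage 3 replicate 2, at 1.04 with a limma adjusted p of 0.487. None of the 9 members was called between these groups, by fold and p (2.86% of all genes) or by limma's adjusted p (1.33%); at an unadjusted p of at most 0.05 there were 2, Myc and Mxd4, beside 10.2% of genes.

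Genes of cell division were low in the same groups as Myb. Summed over 22 genes of mitosis and DNA replication, among them the proliferation marker Mki67, the level was 80.3, 76.2 and 102 FPKM in WT stage 2, 8.08, 22.9 and 7.54 in WT stage 3, and 13.1, 12.03 and 12.2 in Med23-deficient stage 2. Over the 9 libraries Myb and this sum correlated at r = 0.936 (Pearson, log2(FPKM + 1)). Within the groups the orders differed, though the Med23-deficient sums lay close together. WT stage 3 replicate 2 had the most Myb and the highest sum of its group, whereas replicate 2 of WT stage 2 and of Med23-deficient stage 2 had the most Myb and the lowest sum. In WT stage 3 all 22 genes were lower than in WT stage 2, with a median log2 change of -1.27 against -0.01 for all genes tested; 14 were called lower by fold and p (1.9% of all genes) and 3 fell by adjusted p (0.914% of all genes), Birc5, Bub1 and Mki67. Mki67 averaged 28.9 FPKM in WT stage 2, 3.80 in WT stage 3 and 3.01 in Med23-deficient stage 2. In the Med23-deficient cells all 22 were again lower than in WT stage 2, with a median of -1.18; 12 were called lower (1.32% of all genes) and 2 fell by adjusted p (0.145%), Mki67 and the cyclin Ccnb2. Between the Med23-deficient and WT stage 3 cells no gene of the list was called by fold and p. The part of dividing cells in the Myb difference was not tested. In sorted cells measured in bulk, fewer cells that express a gene and less RNA per cell cannot be told apart.

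The relatives and partners of Myb gave no call by fold and p. Mybl1 and Mybl2, the other proteins of the family, stayed at or below 0.45 and 0.88 FPKM in all libraries. The coactivators through which Myb acts were well expressed, with Crebbp at 34.1 to 44.5 FPKM and Ep300 at 16.5 to 22.4 FPKM over the 9 libraries. Of the 12 genes listed, 1 rose by adjusted p from WT stage 2 to WT stage 3, where 1.67% of all genes changed in either direction. This was Cebpb, a bZIP factor that works with Myb on myeloid promoters. It averaged 15.1 FPKM in WT stage 2 and 26.6 in WT stage 3 (log2 change 0.77, limma adjusted p = 0.0373). In the Med23-deficient cells Cebpb averaged 18.6 FPKM.

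Genes known to depend on Myb in double-positive thymocytes or early iNKT cells went different ways, and 8 of the 9 listed were in the table. Slamf6, a SLAM family receptor needed for iNKT selection, had 11.3, 9.75 and 14.7 FPKM in WT stage 2, 0.84, 1.34 and 1.23 in WT stage 3, and 5.62, 4.35 and 6.98 in Med23-deficient stage 2. The 3 groups did not overlap, and the cells without Med23 lay between the WT stages. Slamf6 fell by 2.59 on the log2 scale from WT stage 2 to WT stage 3 (limma adjusted p = 0.0117), the difference of Med23-deficient from WT stage 2 was -0.96 (limma adjusted p = 0.206), and it was higher in the Med23-deficient cells than in WT stage 3 by 1.63 (limma adjusted p = 0.0429). Slamf1, its relative, averaged 2.45 FPKM in WT stage 2, 0.85 in WT stage 3 and 1.14 in the cells without Med23, and was not called. Bcl2 and Bcl2l1 encode survival proteins. Bcl2 averaged 11.4 FPKM in WT stage 2, 37.3 in WT stage 3 and 17.6 in the cells without Med23, and its difference between the WT stages was 1.65 with a limma adjusted p of 0.074. Bcl2l1 had 3.31, 4.97 and 5.33 FPKM in the same order. Gata3, a T cell factor, averaged 38.8, 33.5 and 69.2 FPKM and was higher in Med23-deficient stage 2 than in WT stage 3 by 1.02 (limma adjusted p = 0.0175). The Med23-deficient libraries, at 60.7 to 77.2 FPKM, also lay above those of WT stage 2, at 35.8 to 42.5. Gata3 was not called in that comparison, in which 14% of all genes did not overlap. Cd1d1 and Sh2d1a were not called in any comparison, and Rag2 was at most 0.26 FPKM. Over the 8 genes the median log2 change was -0.15 from WT stage 2 to WT stage 3 and -0.06 from WT stage 2 to Med23-deficient stage 2.

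Myb shares chromosome 10 with Med23, 3.71 Mb away, so its neighbours were read beside it. Within 1 Mb of Myb there were 10 other genes with a mean of at least 1 FPKM. The nearest on its left, Ahi1, averaged 2.24 FPKM in WT stage 2, 1.16 in WT stage 3 and 0.92 in Med23-deficient stage 2 (log2 differences from WT stage 2 of -0.58 and -0.74, limma adjusted p = 0.403 and 0.402). The nearest on its right, Hbs1l, had 7.75, 6.65 and 8.48 FPKM. None of the 10 was called by fold and p in the cells without Med23 against WT stage 2, where 2.11% of all genes were. Of the 10, 2 were called between the WT stages, beside 3.6% of all genes. The same 2 were called between Med23-deficient stage 2 and WT stage 3, beside 2.86%. Sgk1, a kinase, averaged 3.48 FPKM in WT stage 2, 13.95 in WT stage 3 and 4.48 in the cells without Med23 (limma adjusted p = 0.0553 and 0.205). The other, 4933406P04Rik, averaged 0.673, 2.61 and 0.847 FPKM (limma adjusted p = 0.220 and 0.427). The antisense gene annotated inside Myb, Gm26577, was at most 0.04 FPKM.

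Myc differed little between the groups. It had 23.4, 19.6 and 15.6 FPKM in WT stage 2, 23.2, 23.3 and 20.0 in WT stage 3, and 20.0, 17.5 and 15.5 in Med23-deficient stage 2. The stage 2 groups overlapped each other and WT stage 2 overlapped WT stage 3. The difference of WT stage 3 from WT stage 2 was 0.19 on the log2 scale (95% interval -0.21 to 0.59, limma adjusted p = 0.667), and that of Med23-deficient from WT stage 2 was -0.13 (95% interval -0.55 to 0.30, limma adjusted p = 0.814). Both intervals leave out a change of 2-fold in either direction on this scale. Every Med23-deficient library was below every WT stage 3 library, if only just, with a difference of -0.31 (95% interval -0.62 to -0.01, limma adjusted p = 0.464), and Myc was 1 of 2 members whose groups did not overlap here, Mxd4 being the other, beside 14.2% of all genes. Over the 9 libraries the highest Myc level was 1.52 times the lowest, where for Myb that ratio was 14.5.

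Max, the shared partner, varied most within WT stage 2, at 23.3, 47.7 and 37.8 FPKM. The WT stage 3 libraries had 28.7, 21.2 and 34.5 FPKM and the Med23-deficient libraries 32.5, 29.3 and 24.9, so all groups overlapped. The differences from WT stage 2 were -0.32 and -0.27 on the log2 scale (limma adjusted p = 0.670 and 0.740). Within WT stage 2 the ratio of Max to Myc ran from 0.993 to 2.44, a range wide enough to hold all 3 Med23-deficient libraries, at 1.61 to 1.67, and 2 of the 3 WT stage 3 libraries.

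Mxd4 was the most abundant antagonist. It had 16.5, 24.4 and 21.2 FPKM in WT stage 2, 21.9, 21.1 and 29.2 in WT stage 3, and 16.1, 16.9 and 16.4 in Med23-deficient stage 2. The Med23-deficient libraries lay close to each other and below all WT stage 3 libraries. That difference was -0.51 (SE 0.14, 95% interval -0.85 to -0.17) and did not pass the adjustment (limma adjusted p = 0.234). Against WT stage 2 the Med23-deficient cells differed by -0.30 (limma adjusted p = 0.609) and WT stage 3 by 0.21 (limma adjusted p = 0.667), with overlap in each case.

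Mxd1 had the widest range of the antagonists above 1 FPKM. Its level was 4.35, 8.09 and 8.62 FPKM in WT stage 2, 6.68, 14.9 and 17.7 in WT stage 3, and 6.49, 8.04 and 11.4 in Med23-deficient stage 2. Of the WT stage 3 libraries, 2 lay above all 6 stage 2 libraries, while replicate 1 lay among them. The difference between the WT stages was 0.76 (SE 0.40, 95% interval -0.22 to 1.75, limma adjusted p = 0.496), and without WT stage 3 replicate 1 it was 1.15 and passed the study's thresholds (limma adjusted p = 0.211). The Med23-deficient cells differed from WT stage 2 by 0.28 (limma adjusted p = 0.757) and from WT stage 3 by -0.48 (limma adjusted p = 0.7502). A separate gene model, Gm44292, is annotated on the same strand inside Mxd1 and had 1.72, 4.77 and 4.06 FPKM in WT stage 2, 4.35, 10.4 and 10.6 in WT stage 3, and 3.28, 4.06 and 5.78 in Med23-deficient stage 2, so that it was high and low in the same libraries as Mxd1 (Pearson r = 0.971). How reads were divided between the 2 overlapping models is not known, and the level of Mxd1 is uncertain to that extent.

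Mnt, Mxi1 and Mga overlapped between all groups. Mnt, the antagonist known to be present in most dividing and resting cells alike, had 12.2, 6.50 and 7.80 FPKM in WT stage 2, 8.84, 12.03 and 10.03 in WT stage 3, and 10.1, 7.49 and 9.53 in Med23-deficient stage 2. Mga had 13.3, 10.6 and 9.61 FPKM, then 10.7, 13.2 and 14.1, then 8.56, 13.3 and 12.3 in the same order of groups. Mxi1 was low throughout, from 2.23 to 3.52 FPKM over the 9 libraries. For these 3 genes the log2 differences lay between -0.17 and 0.23 in all 3 comparisons, with limma adjusted p of at least 0.677. Mxd3, the Mxd gene that is known to be expressed in S phase, had 0.55, 0.17 and 0.72 FPKM in WT stage 2, was at 0 in WT stage 3 replicates 1 and 3 and at 0.69 in replicate 2, and had 0, 0.21 and 0.11 FPKM in the cells without Med23. Its levels were too low for a ratio to be read. The gene Prelid1 meets Mxd3 at its 3′ end on the opposite strand and reached 106 FPKM.

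**Figure D2:**
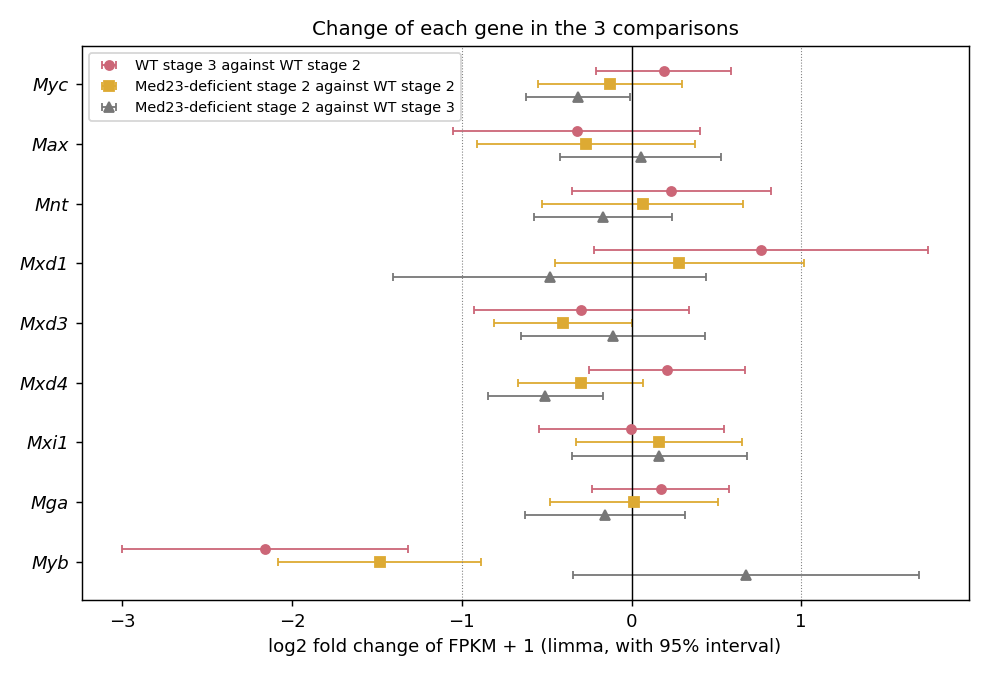
Difference of each gene in WT stage 3 against WT stage 2, Med23-deficient stage 2 against WT stage 2 and Med23-deficient stage 2 against WT stage 3, as the log2 fold change of FPKM + 1 (horizontal axis) with its 95% interval from limma; dotted lines mark a 2-fold change. For Myb the intervals against WT stage 2 run from -3.00 to -1.32 and from -2.08 to -0.89; apart from Myb, the intervals that leave out 0 are those of Myc and Mxd4 between Med23-deficient stage 2 and WT stage 3.

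Taken as a sum, the 5 antagonists exceeded Myc in every library. Their summed level was 36.3, 42.3 and 40.9 FPKM in WT stage 2, 40.9, 51.4 and 59.2 in WT stage 3, and 35.6, 35.9 and 40.9 in Med23-deficient stage 2. Divided by Myc of the same library this gave 1.55, 2.16 and 2.63, then 1.77, 2.21 and 2.96, then 1.78, 2.05 and 2.65, so the 3 groups covered nearly the same range. Mxd4 held 40.0% to 57.8% of the sum, Mnt 15.4% to 33.5% and Mxd1 up to 29.9%. The mean share of Mxd1 was 17.4% ± 4.78 in WT stage 2, 25.1% ± 7.61 in WT stage 3 and 22.8% ± 4.86 in Med23-deficient stage 2 (SD, n = 3), and the libraries of the groups overlapped. Myb divided by Myc, by contrast, was 0.463 to 0.630 in WT stage 2, 0.0390 to 0.143 in WT stage 3 and 0.127 to 0.240 in Med23-deficient stage 2.

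**Figure D3:**
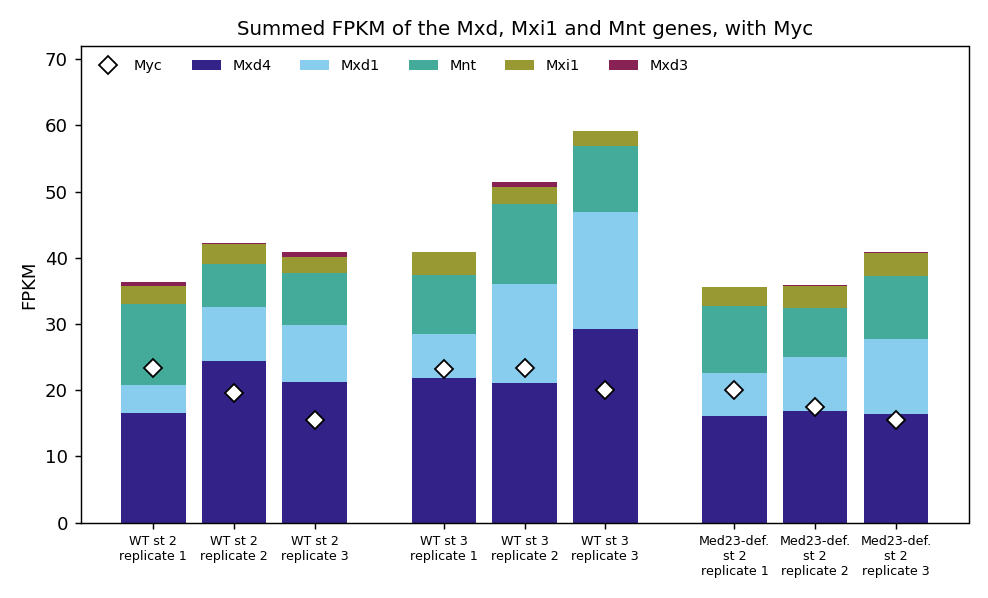
FPKM of the 5 Myc antagonists stacked for each library (bars, from 0), with the FPKM of Myc in the same library as a diamond. The bars reach 36.3 to 42.3 in WT stage 2, 40.9 to 59.2 in WT stage 3 and 35.6 to 40.9 in Med23-deficient stage 2, and each diamond lies below the top of its bar.

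The rest of the network gave no call. Among Mlx, the Max-like partner, and the glucose-responsive Mlxip, and Usf1 and Usf2, which bind the same E-box, none was called in any comparison. Mlx had 14.3, 15.6 and 15.5 FPKM in WT stage 2 and 12.8, 9.58 and 10.3 in WT stage 3, a difference of -0.45 (limma adjusted p = 0.213), and Usf2, the highest of them, ran from 18.7 to 30.5 FPKM over the 9 libraries. Mycn, the other Myc gene measured, was at 2.46 FPKM in WT stage 2 replicate 2 and at most 0.38 in the other 8 libraries, with 0 in all 3 libraries without Med23. Over these 5 genes the median log2 change was 0.04 in WT stage 3 (-0.06 on the TPM scale) and -0.30 in Med23-deficient stage 2 against WT stage 2.

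Among 15 cofactors of Myc and of the Mxd proteins, 1 was called between the WT stages, beside 3.6% of all genes by fold and p and 1.67% by adjusted p. With 1 gene the shares cannot be compared. Pim1, a kinase that binds Myc and is known as an activator of its targets, had 7.02, 10.9 and 11.4 FPKM in WT stage 2, 24.6, 25.5 and 22.6 in WT stage 3, and 16.5, 18.0 and 18.9 in Med23-deficient stage 2. The 3 groups did not overlap, with the Med23-deficient cells in between. Pim1 rose by 1.25 on the log2 scale from WT stage 2 to WT stage 3 (SE 0.19, limma adjusted p = 0.0420), and its difference in the Med23-deficient cells was 0.83 (limma adjusted p = 0.209). Of the 15, 13 averaged less in WT stage 3 than at stage 2, with a median of -0.20, and 11 in the Med23-deficient cells, with a median of -0.17; with the libraries scaled to a common upper quartile the count for WT stage 3 was 10. The corepressors Sin3a and Ncor1 were at 18.2 to 28.4 and 38.97 to 53.3 FPKM over the 9 libraries. Of 9 genes that set the turnover of the Myc protein, none was called; Fbxw7, which marks Myc for degradation, averaged 5.47 FPKM in WT stage 2 and 3.13 in WT stage 3 (limma adjusted p = 0.137).

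Ribosome and metabolic genes that Myc is known to activate were mostly at slightly lower levels outside WT stage 2, in small steps. The 40 ribosome biogenesis genes summed to 866 to 972 FPKM in WT stage 2, 686 to 780 in WT stage 3 and 706 to 774 in Med23-deficient stage 2, so that both groups lay below WT stage 2 with no overlap of the sums. Of the 40, 33 were lower on the log2(FPKM + 1) scale in WT stage 3 (median -0.24) and 34 in Med23-deficient stage 2 (median -0.24). The median of all genes with a mean of at least 1 FPKM was -0.05 in each comparison. On the TPM scale, which divides by a summed FPKM made up mostly of Gm23935, the list medians were -0.34 and -0.35 and those of all such genes -0.14 and -0.16. None was called by fold and p or by adjusted p. At an unadjusted limma p of at most 0.05 there were 11 in each comparison, beside 13.2% and 9.58% of all genes tested. Those shares include genes with a mean below 1 FPKM, whereas all 40 listed genes reached it, so the backgrounds differ. When each library was scaled to a common upper quartile, 30 and 29 of the 40 were lower. The 25 metabolic genes summed to 379 to 418 FPKM in WT stage 2, 267 to 327 in WT stage 3 and 253 to 294 in Med23-deficient stage 2. Of these, 19 had a lower mean in WT stage 3 (median -0.26) and 23 in the cells without Med23 (median -0.43). None was called between the WT stages. In the cells without Med23 against WT stage 2, 1 was called by fold and p, beside 2.11% of all genes. This was Dctpp1, which clears modified dCTP from the nucleotide pool. Dctpp1 had 11.7, 8.59 and 10.2 FPKM in WT stage 2, 6.18, 5.23 and 3.28 in WT stage 3, and 1.85, 3.01 and 3.09 in Med23-deficient stage 2, a difference from WT stage 2 of -1.62 for the last group (limma adjusted p = 0.0675). The 15 cell cycle genes regulated by Myc hold 10 that it is known to activate and 5 that it is known to repress, the inhibitors Cdkn1a, Cdkn1b, Cdkn2b and Cdkn2c and the stress gene Gadd45a. Of the activated genes, 8 of 10 averaged less in WT stage 3 than in WT stage 2 (median -0.53). In the cells without Med23, 8 of the 9 tested did (median -0.52). So did 4 of the 5 repressed ones in each comparison (medians -0.14 and -0.20), the 4 inhibitors, but little can be read from their direction. Cdkn1a was at 0 in 7 libraries and Cdkn2b in 6, and Cdkn2c averaged at most 1.36 FPKM in any group. Cdkn1b hardly differed, at a mean of 13.15 FPKM in WT stage 2, 12.7 at stage 3 and 12.88 without Med23. By fold and p, E2f2 was the 1 gene called of the 15 between the WT stages, beside 3.6% of all genes. It was also the 1 called of the 14 tested in the cells without Med23 against WT stage 2, beside 2.11%. This activator of S phase genes had 3.17, 2.73 and 4.02 FPKM in WT stage 2, at most 0.81 in WT stage 3 and at most 0.95 in Med23-deficient stage 2, with differences of -1.79 and -1.58 (limma adjusted p = 0.0596 and 0.162). The D cyclin Ccnd2 was at 67.6 to 86.2 FPKM in all 9 libraries.

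**Figure D4:**
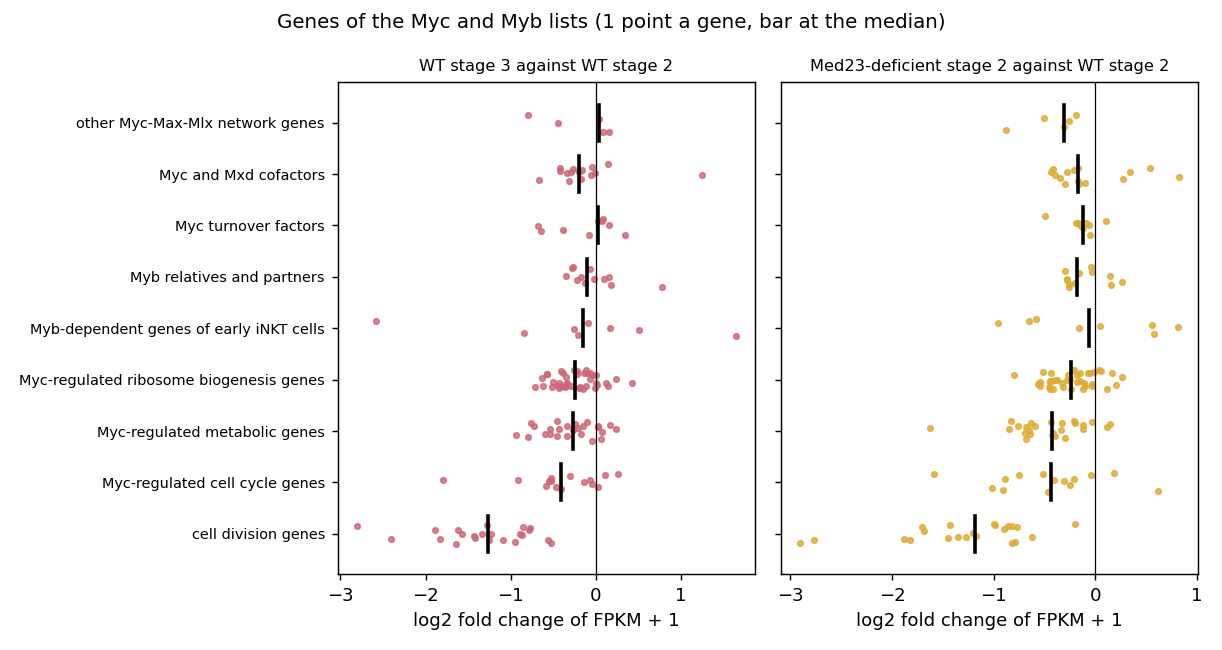
Log2 fold change of FPKM + 1 (horizontal axes) of every tested gene in the lists of Myc and Myb partners and regulated genes (rows, 1 point a gene, black bar at the median) in WT stage 3 and in Med23-deficient stage 2 against WT stage 2, which share the WT stage 2 libraries. The medians lie between -0.43 and 0.04 for all lists except the cell division genes, whose medians are -1.27 and -1.18.

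Genes of like pattern were looked for over the 9 libraries among 9444 others, by Pearson correlation of log2(FPKM + 1), with gene models named Gm or Rik left out (Gm44292, inside Mxd1, is one of these). These correlations describe 9 libraries from different groups, so they also take in differences of group, depth and sorting. Among so many genes high values occur readily. Nearest to Myb were Ptms (parathymosin, r = 0.978), Bak1 (a pro-apoptotic Bcl2 family protein, r = 0.975) and Cltc (clathrin heavy chain, r = 0.974). Ptms averaged 28.0 FPKM in WT stage 2, 6.81 in WT stage 3 and 12.7 in Med23-deficient stage 2, and Bak1 14.7, 8.34 and 8.73 FPKM. Nearest to Myc were Osbpl11 (r = 0.966), C87436 (r = 0.963) and Nfe2l1 (r = 0.906), and the genes nearest to Mxd4 were Slc28a2, Dnaja1 and Clcn3 (r = 0.900 to 0.914). For Mxd1 they were 2 transcripts named by clone and H6pd (r = 0.932), for Max Alkbh8, Ncbp3 and Babam1 (r = 0.878 to 0.911), for Mnt Tfip11, Ifi47 and Snx15 (r = 0.926 to 0.959), for Mga Fam120c, Vps16 and Ccnk (r = 0.890 to 0.942) and for Mxi1 Sdf4, Sec23ip and Mthfsd (r = 0.887 to 0.921). Among the 9 factors themselves the correlations ran from -0.796, between Max and Mnt, to 0.624, between Mxd3 and Myb. Myc and Myb were at -0.0881, Myc and Max at -0.346, and Mxd1 and Myb at -0.562.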

How the data were processed

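The authors trimmed reads of stranded libraries, made from total RNA with a low-input kit, with Trimmomatic (version 0.36), aligned them to mm10 with HISAT2, kept reads that hit no more than 2 loci, and quantified GENCODE vM12 genes with StringTie; the values they deposited are FPKM per gene and library, with no counts. From these, log2(FPKM + 1) was fitted with limma 3.58.1 (R 4.3.3; trended empirical Bayes), without a block, over the 6 libraries of each comparison and all genes above 0 in at least 1 of them, with Benjamini-Hochberg adjustment over all of these genes. A gene was called past a fold of at least 2 with p of at most 0.05, the study's thresholds, or past an adjusted p of 0.05; "rose" and "fell" are kept for the latter. The authors' Ballgown model was imitated as an alternative. The fit was checked on simulated data. Groups and replicate numbers came from the sample titles.

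Named were all 9 members, Med23, up to 3 called genes of each list with the largest change, any gene of a list of up to 12, and for each member above a mean of 1 FPKM the 3 genes of highest correlation with a mean of at least 1 and a maximum of at least 2 FPKM, symbols with Gm or Rik left out. The markers Klrb1c, Il2rb, Tbx21, Zbtb16, Rag2, Cd79a and Hbb-bs, Gm23935, Birc5, Bub1, Sin3a, Ncor1, Ccnd2 and the genes near or overlapping a member were added after their values were seen. The members and lists were chosen with earlier results of these data known. Promoters are from RefSeq (GRCm38.p6), matched by symbol. Nearby and overlapping genes are from the deposited coordinates and GENCODE vM21.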

Additional observations from a re-analysis of the deposited data

How the results depend on the processing

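The counts and changes of the 9 members were computed under 14 alternatives, among them 6 that left out 1 library; the lists were recomputed only with TPM and upper-quartile scaling, and the ratios, neighbours and correlations under none. Myb kept its direction in all of them: from -2.74 to -1.89 between the WT stages (adjusted p 0.0141 to 0.467) and from -1.81 to -1.24 in the Med23-deficient cells (adjusted p 0.0333 to 0.402). The 1 adjusted call between the WT stages became 0 on the TPM scale, with upper-quartile scaling, in limma without a trend and in the Ballgown-style model, and 0 to 1 with a library left out; the count by fold and p became 0 in the Ballgown-style model, where Myb was at -2.06, and 1 to 2 with a library left out. For the Med23-deficient cells the adjusted count of 0 became 1 with a minimum mean of 1 FPKM. Against WT stage 3 the count of 0 by fold and p was 0 to 1 with a library left out. The cause of these shifts was not tested.

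The values that changed sign were small. Between the WT stages, Mxi1 (-0.00098) was 0.061 with upper-quartile scaling and -0.13 to 0.11 with a library left out, and the Ballgown-style model gave -0.14 for Myc, 0.19 for Max, -0.21 for Mnt and -0.10 for Mga. In the Med23-deficient cells against WT stage 2, Mnt was -0.049 on the TPM scale and -0.045 in the Ballgown-style model, and Mga -0.10 and -0.083; with a library left out, Myc ran from -0.27 to 0.0087, Mnt from -0.11 to 0.30 and Mga from -0.10 to 0.19. Against WT stage 3, the same ranges were -0.13 to 0.21 for Max, -0.27 to 0.019 for Mga and -0.24 to 0.14 for Mxd3. Mxd3 had no value with the minimum mean.

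On the TPM scale the median change of genes with a mean of at least 1 FPKM was -0.158 in the Med23-deficient cells, against -0.0504 as deposited. In that comparison the share of calls that were higher was 37.8% as deposited, 28.6% on the TPM scale and 51.8% in the Ballgown-style model.

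Libraries of different groups share replicate numbers, and the labels do not say whether these mark pairs. In their deviations from the group means, same-numbered libraries of different groups correlated at 0.00429 to 0.272. Libraries with different numbers correlated at -0.175 to 0.124. In 11 of 18 matches of a library with another group, the best correlation was with its own number. The main fit did not take the numbers as pairs, and what the numbers share was not tested. With the replicate number as a block, the 1 adjusted call between the WT stages became 0 (Myb adjusted p = 0.121), all genes past the adjusted p went from 346 to 19, and in the Med23-deficient cells from 44 to 0. Mxd1 was lowest in replicate 1 and highest in replicate 3 of every group. With the block the limma adjusted p of its difference between the WT stages was 0.170 in place of 0.496. Myb was highest in replicate 2 and lowest in replicate 3 of every group, and Myc was lowest in replicate 3 of every group. The unknown read depth limits what can be said of genes near 0, such as Mxd3.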
